A study of Rattus norvegicus with 3 samples.

Results

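The enzymes of the urea cycle and of arginine and creatine synthesis were examined in rat kidney through 8 genes taken by name, Nags, Cps1, Otc, Ass1, Asl, Oat, Gatm and Gamt. A probe was assigned to one of them where its RefSeq accession belonged to that gene. The 8 genes had 9 probes and are among 26785 genes on the arrays, of which 14183 could be tested. These counts include 11342 array identifiers without a RefSeq symbol, of which 5271 were tested, and they are called genes here. RNA came from the non-tumor kidney region of male Sprague-Dawley rats on a control diet, aged 5 weeks at purchase and acclimated for 1 week. The G200 group drank water with 200 ppm gamma-aminobutyric acid (GABA, an amino acid best known as a neurotransmitter) for 3 weeks, and the negative control group did not receive GABA. The labels give 3 rats per group. On each of 3 Agilent arrays with 2 colours, control RNA was labelled with Cy3 (green) and G200 RNA with Cy5 (red), and the control was in Cy5 on 0 arrays, so an effect of the dyes and an effect of GABA cannot be told apart.

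The urea cycle turns ammonia into urea in the liver cell, starting in the mitochondrion and ending in the cytosol. The kidney runs only the middle of this route: its proximal tubule takes up citrulline from the blood, makes arginine from it and releases it, and the same tubule makes guanidinoacetate, the precursor of creatine. Of these 2 organs the liver alone is known for strong expression of Cps1 and Otc, and Ass1, Asl and Gatm are known for their renal expression.

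A log2 ratio above 0 means a higher signal in G200, and a level is a log2 intensity after normalization, to be compared between channels of 1 probe and not between probes. Between arrays the control channels varied about as little as replicate spots of 1 probe. Over 1111 probes with at least 5 spots the variance between arrays was 0.644 times (median) that predicted from replicate spots in the control channel, against 6.76 times over 1087 probes in the G200 channel. For this reason the green channels stand for a single control, and each mean log2 ratio was tested against 0 over the 3 arrays with limma. Differences among control rats do not enter that test. A gene is called changed here at an adjusted p under 0.05 (Benjamini-Hochberg over all 14183 genes). Of the 8 enzymes 7 could be tested and 4 were called, Otc, Ass1 and Asl lower and Gatm higher in G200. Otc counts here through its control signal alone, and 3 were called where both colours had to be well above background. For comparison, 37.5% of all genes tested were called, 11.5% higher and 25.9% lower (1638 and 3678 genes), a split that became 4990 and 1246 with median centring and 8010 and 304 without dye normalization. Of the 8912 tested genes with a RefSeq symbol 34.2% were called. The enzymes called were 2 higher and 1 lower with median centring and 3 higher and 0 lower with no normalization. With each array centred on its median in place of loess normalization the ratios of Ass1 and Asl turned slightly positive and were not called, while Otc and Gatm kept their direction and their call.

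**Figure D1:**
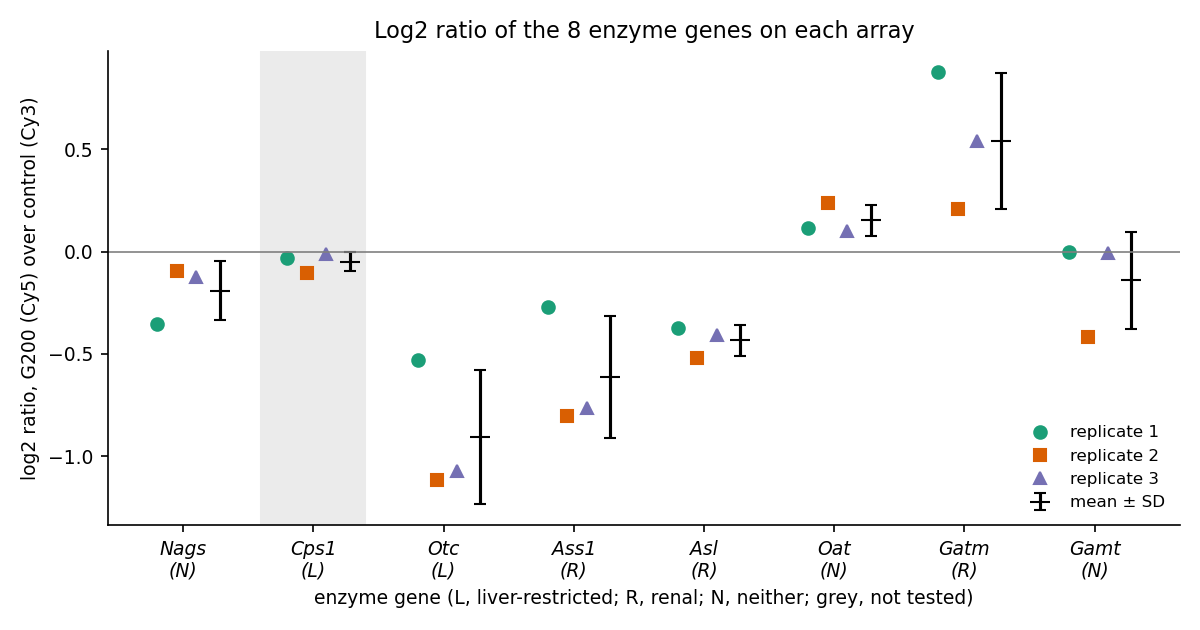
Log2 ratio of G200 over control (y axis) for each enzyme gene (x axis, in the order of the pathway) on replicates 1, 2 and 3, with the mean ± SD over the 3 arrays in black. Otc lies lowest at -0.53, -1.12 and -1.07, Gatm lies above 0 on each array, and the grey band marks Cps1, which was not tested.

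Nags makes N-acetylglutamate, the activator that Cps1 needs. Its log2 ratio was -0.36, -0.09 and -0.13 on replicates 1, 2 and 3, a mean of -0.19 ± 0.14 (SD, n = 3, with a 95% interval of -0.38 to -0.00 and adjusted p = 0.102 from limma), and it was positive (0.15) with no normalization between the dyes. The all-gene median was 0.62 in that setting, and Nags relative to it was at -0.47. With an offset of 0 Nags was at -0.48 and called lower by limma (adjusted p = 0.0496). Its level was 6.60, 6.47 and 6.36 in the control and 6.25, 6.38 and 6.23 in G200, so the channels overlapped.

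Cps1 makes carbamoyl phosphate from ammonia and bicarbonate and is among the most abundant proteins of liver mitochondria. Its single probe was not well above background in either colour on any array. The unnormalized spot intensity was 45, 44 and 45.5 in the control over a local background of 23, 22.5 and 25, and 59, 52 and 55 in G200 over a background of 47, 47.5 and 45. The log2 ratio was -0.03, -0.10 and -0.01, and no fold and no test are given. Signal from Cps1 was thus near background in the control and in G200 alike, and whether this probe can report the transcript was not tested.

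Otc, the mitochondrial enzyme that joins carbamoyl phosphate to ornithine to give citrulline, was lower in G200. Its level was 7.09, 7.25 and 7.0 in the control and 6.56, 6.13 and 5.93 in G200. The 3 G200 levels lay below all control levels. The probe was well above background on 3 arrays in the control and on 1 in G200, so it entered the test through the control channel alone. The log2 ratio was -0.53, -1.12 and -1.07, a mean of -0.91 ± 0.33 (SD, n = 3, with a 95% interval of -1.21 to -0.60 and adjusted p = 0.00393 from limma). No fold is given, since G200 was near background on 2 arrays and the mean was -1.97 with an offset of 0 and -3.27 in the authors' log ratio. Left without dye normalization it was -0.41 and not called by limma (adjusted p = 0.19, against 6.4e-05 to 0.19 over the alternatives). The all-gene median was then 0.62, and relative to that median Otc was at -1.03, against -0.86 in the main fit.

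The sequences before the start of Otc and Cps1 are shown with those of Ass1 and Gatm, to set liver-restricted members beside renal ones that were called in opposite directions. They are the 250 bases before the start given by the RefSeq promoter table, which holds all 8 genes, in build GRCr8 and read along the gene's strand. For Otc and Cps1 that start is the first base of the gene in the RefSeq gene table, and for Ass1 and Gatm it lies inside the gene. Capitals mark matches on either strand to an HNF4 repeat (AAAGTTCA, AAAGGTCA or AAAGTCCA, 1 of the 2 repeats of a full motif), a C/EBP motif (TTNNGCAA), a CCAAT box (CCAAT) or a TATA box (TATAAA), and no match overlapped another motif. Otc lies on the minus strand (chrX:15202474-15202723) and Cps1 on the plus strand (chr9:76063613-76063862). Ass1 lies on the plus strand (chr3:35149480-35149729) and Gatm on the minus strand (chr3:130129094-130129343).
Otc: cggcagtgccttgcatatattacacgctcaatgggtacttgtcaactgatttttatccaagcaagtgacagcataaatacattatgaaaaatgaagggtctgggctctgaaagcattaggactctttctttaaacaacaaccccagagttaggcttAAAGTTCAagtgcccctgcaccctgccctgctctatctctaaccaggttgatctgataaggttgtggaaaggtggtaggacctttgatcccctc
Cps1: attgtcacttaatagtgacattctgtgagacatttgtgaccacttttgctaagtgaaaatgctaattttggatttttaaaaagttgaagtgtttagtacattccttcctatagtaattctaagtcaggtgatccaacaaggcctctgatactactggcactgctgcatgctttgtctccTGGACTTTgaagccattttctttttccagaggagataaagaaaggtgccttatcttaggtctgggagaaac
Ass1: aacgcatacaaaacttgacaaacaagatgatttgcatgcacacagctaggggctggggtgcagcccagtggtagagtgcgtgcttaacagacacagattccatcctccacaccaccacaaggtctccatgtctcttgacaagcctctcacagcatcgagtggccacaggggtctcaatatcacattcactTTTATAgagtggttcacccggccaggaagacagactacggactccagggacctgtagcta
Gatm: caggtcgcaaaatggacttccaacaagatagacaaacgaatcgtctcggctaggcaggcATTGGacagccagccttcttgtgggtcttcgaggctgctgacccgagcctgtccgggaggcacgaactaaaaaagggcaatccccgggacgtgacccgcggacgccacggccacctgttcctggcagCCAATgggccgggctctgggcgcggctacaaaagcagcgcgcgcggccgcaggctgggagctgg
An HNF4 repeat was found in Otc, at 94 to 87 bases before the start, and in Cps1, on the opposite strand at 71 to 64 bases, and in none of the other 6 windows, Ass1, Asl, Gatm, Gamt, Nags and Oat. Of all 33469 promoters in the table, 3.5% held it in the same 250 bases. The TATA box was found in Ass1 alone of the 8 (12.9% of all promoters) and the CCAAT box in Gatm and Oat (34.0%). The C/EBP motif was found in 0 of the 8 (9.2%). The motifs were chosen after the values and the sequences were seen, and a match describes letters in the window only.

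Liver marker genes were lower in G200 together with Otc. Of 28 listed genes expressed mainly by liver cells (plasma proteins and hepatic enzymes), all were on the arrays, 27 were tested and all 27 were lower in G200, and in G200 23 of them were still measured above background on each array. The median log2 ratio was -1.50, -2.88 and -3.74 on replicates 1, 2 and 3, with replicate 1 nearest to 0 as for Otc. From replicate 2 to 3 the median fell further, while Otc was at -1.12 and -1.07. The summed intensity of the list was 190101, 218479 and 229069 in the control and 59091, 22388 and 10278 in G200. Tat, the tyrosine aminotransferase of liver, was not well above background in either colour on any array and was not tested.

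The mean log2 ratio was -3.82 ± 1.81 for Alb (albumin), -3.72 ± 1.82 for Ttr (the carrier of thyroid hormone), -3.35 ± 1.47 for Ambp (the precursor of alpha-1-microglobulin) and -3.32 ± 1.57 for Mug1 (a plasma protease inhibitor), each SD over n = 3. When limma's variances were moderated robustly, 8 of the 27 markers were called and these 4 were not, while Otc was called still (adjusted p = 0.00345). Whether liver RNA had any part in the values of Otc, Ass1 and Asl was not tested, and fewer cells of a type and less RNA per cell cannot be told apart in bulk tissue.

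Markers of the other sites where these enzymes occur, and of the kidney itself, were read beside them. Of 6 macrophage markers tested 1 was lower, C1qb (a complement subunit) at -0.43 ± 0.24 (positive with median centring, and not called without replicate 2 or 3), and none of the 6 was higher. Small intestine is a known site of Cps1 and Otc, and of 4 markers tested 2 were lower, Apoa4 (an apolipoprotein, made in rat liver as well) at -2.58 ± 0.88 and Rbp2 (a retinol-binding protein of the gut) at -0.84 ± 0.31 (not called with median centring, positive with no normalization between the dyes). The markers Alpi and Lct were tested as well and not called, at -0.20 ± 0.12 and -0.01 ± 0.03. Alpi passed the background mark with 3 control and 3 G200 signals, and Lct with 3 control and 2 G200 signals. Fabp2, Cdx2 and Lgals2 of the same list were not well above background in either channel on any array, and Sis, Cdx1 and Muc2 were not on the arrays.

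Of 16 proximal tubule markers tested, the cells of renal arginine and guanidinoacetate synthesis, 3 were higher and 1 lower, with a median of 0.07. The higher genes were Aqp1 (a water channel) at 0.41 ± 0.06, Cubn (the receptor cubilin) at 0.45 ± 0.33 and Lrp2 (the receptor megalin) at 0.26 ± 0.10. With median centring these 3 were at 1.17, 0.99 and 1.05, beside an all-gene median of 0.27. The median of the list was taken after loess normalization only. None of them was called without replicate 3, Cubn was not called without replicate 1, without pairing or in the authors' log ratio, and the mean of the Lrp2 probes was 0.06 and not called. The lower one was Miox (myo-inositol oxygenase) at -0.25 ± 0.10, but it was called higher with median centring (0.65) and with no dye normalization, and not called without any 1 replicate. The summed intensity of this list was 234811, 201622 and 223228 in the control and 244595, 276292 and 237061 in G200. Of the markers tested for other parts of the kidney 2 of 5 were higher for the thick limb and distal tubule, 1 of 8 was lower for the collecting duct and 1 of 6 was higher for podocytes. For fat 1 of 4, for adrenal gland 1 of 2 and for pancreas 1 of 2 markers tested was lower. Of all genes tested 11.5% were called higher and 25.9% lower.

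**Figure D2:**
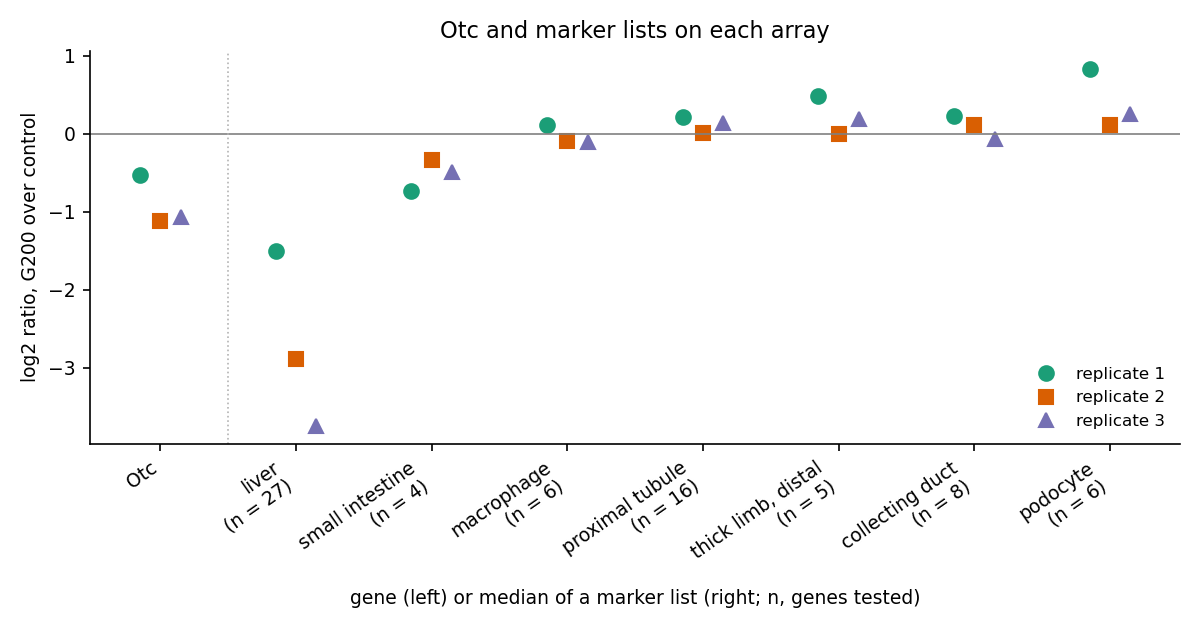
Log2 ratio of Otc and the median log2 ratio of each marker list (y axis) on replicates 1, 2 and 3, with the number of genes tested per list under its name. After loess normalization the liver list lies at -1.50, -2.88 and -3.74, Otc at -0.53, -1.12 and -1.07, and the proximal tubule list near 0.

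Ass1 and Asl carry out the middle steps, which the proximal tubule uses to make arginine. Ass1 joins citrulline and aspartate to argininosuccinate, and its level was 9.79, 9.88 and 9.86 in the control and 9.52, 9.08 and 9.09 in G200. All G200 levels lay below all control levels, with replicate 1 nearest to them. The log2 ratio of Ass1 was -0.27, -0.80 and -0.77, a mean of -0.61 ± 0.30 (SD, n = 3, with a 95% interval of -0.90 to -0.33 and adjusted p = 0.0107 from limma), or 1.53-fold lower. Replicate 1 was nearest to 0 for the median of the liver markers as well (-1.50, -2.88 and -3.74). That median fell further from replicate 2 to 3, where Ass1 was at -0.80 and -0.77. A link between the 2 was not tested.

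Asl, which splits argininosuccinate into arginine and fumarate, had a level of 9.37, 9.45 and 9.52 in the control and 9.0, 8.93 and 9.11 in G200. Here too the channels did not overlap, and the arrays differed little from each other. The log2 ratio was -0.37, -0.52 and -0.41, a mean of -0.43 ± 0.08 (SD, n = 3, with a 95% interval of -0.60 to -0.27 and adjusted p = 0.0058 from limma), or 1.35-fold lower.

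The fall of both depended on the scaling between the dyes. Under median centring the mean was 0.05 for Ass1 and 0.21 for Asl, while the all-gene median went from -0.05 to 0.27, so relative to it the means were -0.22 and -0.06. Left without dye normalization, that median was 0.62, and Ass1 and Asl were at 0.40 and 0.56. Apart from scaling, both calls were lost without replicate 3, at ratios of -0.54 for Ass1 and -0.45 for Asl. The adjusted p from limma was then 0.0826 (0.000443 to 0.873 over the alternatives) and 0.0540 (0.00336 to 0.345). In the authors' log ratio Ass1 was at -0.50 and Asl at -0.36, and neither was called by limma (adjusted p = 0.0527 and 0.0590).

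Oat, the mitochondrial aminotransferase that takes ornithine towards glutamate and proline, had a level of 13.12, 12.93 and 12.94 in the control and 13.24, 13.17 and 13.04 in G200. The channels overlapped, although G200 was higher on each array. The log2 ratio of Oat was 0.12, 0.24 and 0.10, a mean of 0.15 ± 0.08 (SD, n = 3, with a 95% interval of -0.01 to 0.32 and adjusted p = 0.124 from limma), and it was called higher with median centring (0.97, adjusted p = 0.0172, against 0.00642 to 0.292 over the alternatives).

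Gatm transfers the amidino group of arginine to glycine and commits it to creatine, and in the body this step runs mainly in kidney. The brighter of its 2 probes had a level of 7.44, 7.45 and 7.45 in the control and 8.31, 7.66 and 7.99 in G200. All G200 levels lay above all control levels, with replicate 2 nearest to them. The log2 ratio was 0.88, 0.21 and 0.54, a mean of 0.54 ± 0.33 (SD, n = 3, with a 95% interval of 0.23 to 0.85 and adjusted p = 0.02 from limma), or 1.46-fold higher. Its 10 printed spots, of which 10, 9 and 9 were used, had an SD of 0.10, 0.07 and 0.05 on the 3 arrays.

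**Figure D3:**
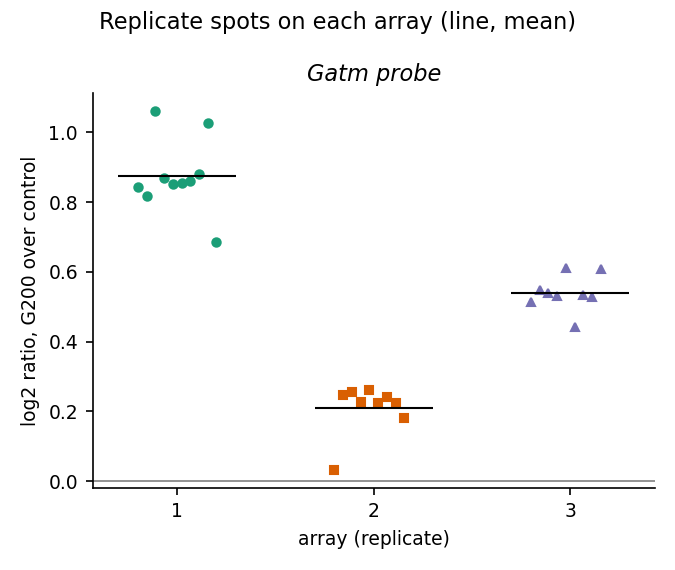
Log2 ratio (y axis) of every spot used of the brighter Gatm probe on each array (x axis), with the mean of each array as a line. All spots lie above 0, with means of 0.88, 0.21 and 0.54.

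The other Gatm probe, matched to the same transcript accession, did not follow. Its log2 ratio was -0.01, 0.19 and -0.19, with a level of 6.84, 6.87 and 6.95 in the control and 6.83, 7.06 and 6.76 in G200, so the channels overlapped. With the mean of both probes Gatm was 0.27 and still called by limma (adjusted p = 0.0388), and without replicate 3 it was not (0.54, adjusted p = 0.106, against 0.00703 to 0.241 over the alternatives). Gamt, which methylates guanidinoacetate to creatine, had a level of 9.58, 9.54 and 9.51 in the control and 9.58, 9.13 and 9.5 in G200. Replicate 2 alone lay clearly lower in G200, and the channels overlapped. The mean log2 ratio of Gamt was -0.14 ± 0.24 (SD, n = 3, with a 95% interval of -0.38 to 0.10 and adjusted p = 0.307 from limma), and it was positive (0.52) with median centring and called higher with no dye normalization (0.87).

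**Figure D4:**
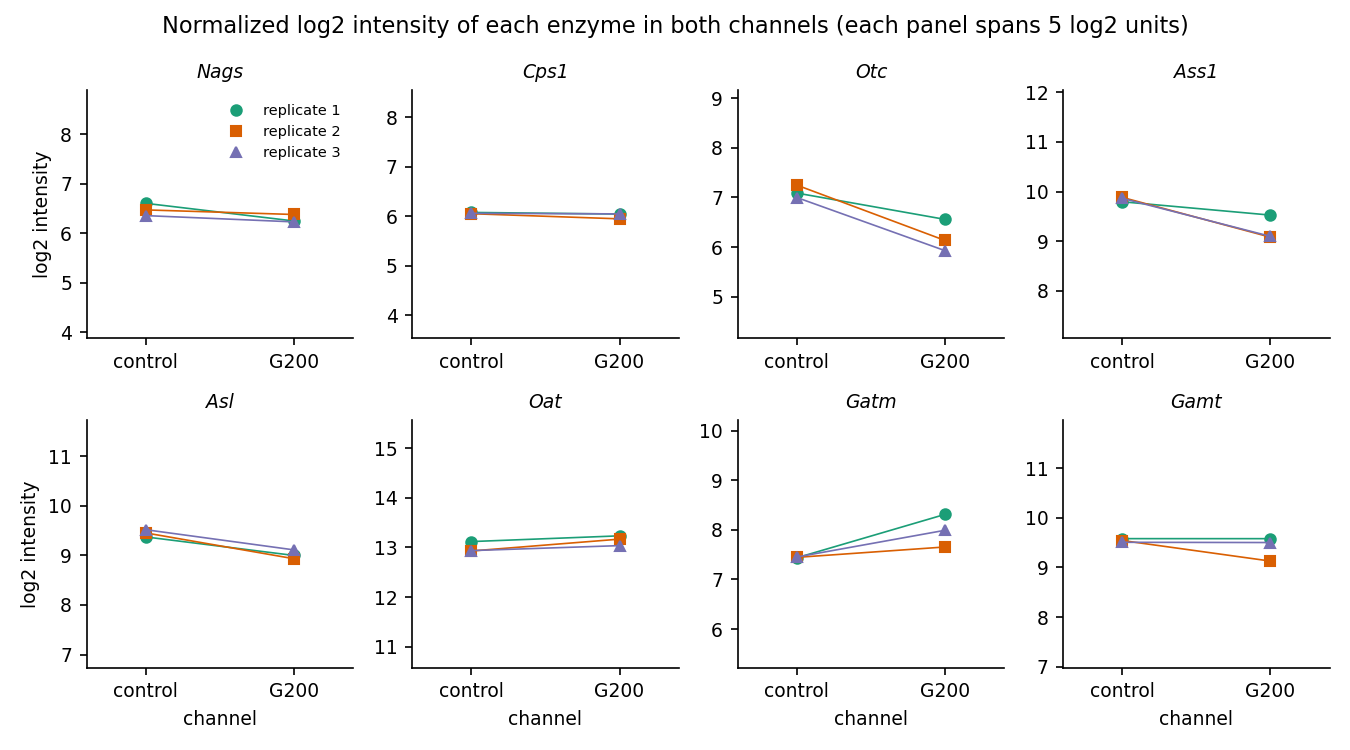
Normalized log2 intensity (y axis) of the control and the G200 channel (x axis) for each enzyme, with a line joining the channels of 1 array and each panel spanning the same 5 log2 units. The control and G200 points are apart for Otc, Ass1, Asl and Gatm and overlap for Nags, Oat and Gamt, and both Cps1 channels lie near background. Of all genes tested 49% had channels that did not overlap.

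The liver-restricted enzymes Cps1 and Otc were then set against the renal ones on each array. The mean log2 ratio of Cps1 and Otc was -0.28, -0.61 and -0.54, and that of Ass1, Asl and Gatm was 0.08, -0.37 and -0.21. The liver-restricted mean lay below the renal mean on every array, by differences of -0.36, -0.24 and -0.33. These have no size to rely on, since Cps1 was near background in both channels and Otc in G200 on 2 arrays, and their mean ran from -1.80 to -0.22 over the alternatives. Under the main settings the sign of the differences rested on Gatm, at a mean of 0.54. Ass1 and Asl were at -0.61 and -0.43, beside -0.48 for the mean of Cps1 and Otc. The difference is a description without a test, since the enzymes were chosen with results of these arrays known. Without Cps1, Otc alone gave -0.61, -0.74 and -0.86, with a mean of -0.74 ± 0.13 (SD, n = 3), a choice made after seeing the data. The renal side was not uniform in the main fit, as it held enzymes of both signs, with Ass1 minus Gatm at -1.14, -1.01 and -1.31 on the 3 arrays. With median centring Ass1, Asl and Gatm were all positive (0.05, 0.21 and 1.01), as they were with no dye normalization (0.40, 0.56 and 1.36). The positive sign in the main fit came from the brighter Gatm probe, since the other had a mean of -0.005. Whether the liver-restricted side was uniform cannot be read, since the ratio of a probe near background in both channels, as for Cps1, lies near 0.

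Other genes of the same pathways were read from 7 lists of carriers, enzymes and hepatic transcription factors. Of 71 genes listed 65 were on the arrays and 49 were tested, and 21 of these (42.9%) were called, 8 higher and 13 lower, beside 37.5% of all genes. The counts of rises and falls turned with the scaling, to 24 higher and 3 lower with median centring. Where both colours had to be well above background 14 were called, 5 higher and 9 lower. The median log2 ratio lay between -0.10 and 0.09 in 6 of the lists and was -0.32 for the hepatic transcription factors.

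In the ammonia and glutamate list 4 genes of 10 were higher and 2 lower. Gls2, the glutaminase known from liver, had a log2 ratio of -0.94, -1.53 and -1.73 (mean -1.40 ± 0.41, SD, n = 3, adjusted p = 0.00184 from limma). Left without dye normalization it was -0.56 and not called by limma (adjusted p = 0.120). The higher genes included Car5b, a mitochondrial carbonic anhydrase, at 0.54 ± 0.06, Glul, the glutamine synthetase, at 0.45 ± 0.15, and Got2, the mitochondrial aspartate aminotransferase, at 0.41 ± 0.05. Without replicate 3 Glul and Got2 were not called, and Got2 was not called without pairing. Car5a, the carbonic anhydrase of liver mitochondria that supplies bicarbonate to Cps1, was well above background on 2 arrays in the control and on 0 in G200 and was not tested.

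Of 5 ornithine and proline enzymes tested 2 were lower and 1 higher. Prodh, which oxidizes proline, had a log2 ratio of -0.75 ± 0.09 and Prodh2, which oxidizes hydroxyproline, of -0.64 ± 0.41. They were -0.14 and -0.06 with median centring, neither called, and positive with no normalization between the dyes. Prodh2 was not called without replicate 2 or 3, without pairing or in the authors' log ratio. Aldh18a1, which starts proline and ornithine synthesis from glutamate, was at 0.25 ± 0.05, but not called with median centring (0.18), in the mean of its probes (0.14) or without any 1 replicate. It was well above background on 2 arrays in the control and on 3 in G200, so it entered the test through G200 alone. Slc25a15, the carrier that brings ornithine into mitochondria for Otc, was not well above background in either channel on any array, and of 5 arginine carriers tested the basic amino acid carrier Slc25a29 was lower at -0.21 ± 0.07. That call was lost with median centring, with both colours required, without pairing and without any 1 replicate, and the ratio was positive with no normalization.

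Among 7 genes of arginine use Ddah2, which breaks down the methylated arginines that inhibit nitric oxide synthases, was lower at -0.50 ± 0.07, but positive with median centring and called higher with no dye normalization (0.61). Prmt5, an enzyme that methylates arginine in proteins, was higher at 0.29 ± 0.01 (not called with median centring or without replicate 1 or 3), and Nos1 and Nos2 were not well above background in either channel on any array. Of 9 polyamine genes Odc1, the ornithine decarboxylase, was higher at 0.36 ± 0.17 (not called with an offset of 0, without pairing or without replicate 2 or 3). Srm, the spermidine synthase, was lower at -0.25 ± 0.14, but called higher with no dye normalization (0.71). The lower call was lost with an offset of 0, in the authors' log ratio, with both colours required and without pairing. It was also lost without any 1 replicate and in the mean of the Srm probes. In the list of creatine use 4 genes were tested, and Ckb, Ckmt1 and Slc6a8 were not called. Gnmt was lower at -0.43 ± 0.18, with a positive ratio under median centring and no call without replicate 3. Like Gamt it methylates with S-adenosylmethionine, but it does not itself act on creatine.

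Of 9 hepatic transcription factors tested 5 (55.6%) were lower and 1 (11.1%) higher, beside 25.9% and 11.5% of all genes tested. Onecut1 and Foxa2, among the 5 lower, were well above background on 3 arrays in the control and on 0 in G200. They so entered the test through the control alone, and a filter on both colours left them out. Each ratio is a bound, of at least 1.58-fold and at least 1.38-fold higher in the control (adjusted p = 0.00310 and 0.00377 from limma, but 0.121 and 0.282 with no dye normalization). These bounds set the mean control signal against the higher, on each array, of the probe's own G200 signal and the lowest G200 signal well above background, and are open to dye bias. Nr1h4, the bile acid receptor, was at -0.60 ± 0.14 and Cebpb, a C/EBP factor, at -0.57 ± 0.36, both positive with median centring, and Cebpb was not called without pairing or without replicate 3. Cebpa was not well above background in either channel on any array.

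**Figure D5:**
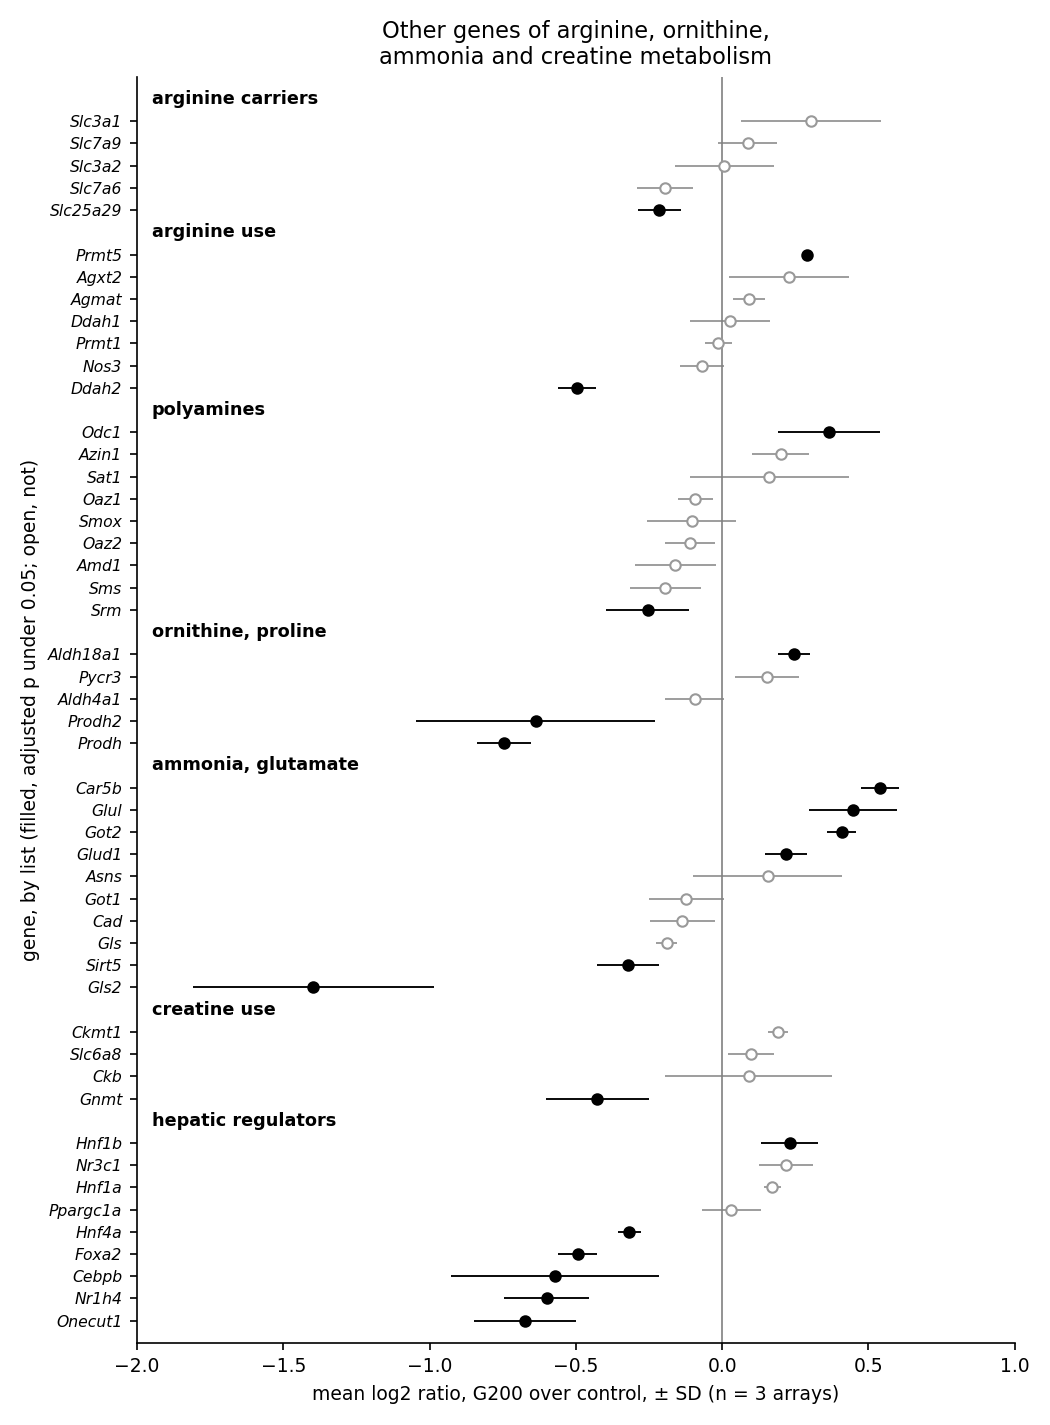
Mean log2 ratio ± SD over 3 arrays (x axis) of the 49 other pathway genes tested (y axis, by list), filled where the adjusted p was under 0.05. Gls2 lies at -1.40, and most other genes lie within 0.5 of 0.

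The genes most like Otc were sought by the Euclidean distance of their 3 log2 ratios from those of Otc. The nearest 5 were Pon3, Hpd, Rpp21, Pemt and Serpind1. No order among them is given, since Otc was near background in G200 on 2 arrays and its ratio moved with the background setting, so the search holds for these settings only. Pon3 is a paraoxonase made chiefly in liver, and its log2 ratio was -0.62, -1.06 and -1.11. Hpd is a dioxygenase of tyrosine breakdown, at -0.87 ± 0.43, and Rpp21 a subunit of ribonuclease P, at -0.97 ± 0.23 (both positive with no normalization between the dyes). Pemt makes phosphatidylcholine from phosphatidylethanolamine and Serpind1 is a thrombin inhibitor of plasma. Like Otc, Serpind1 was well above background on 3 arrays in the control and on 1 in G200, so its ratio is as uncertain as that of Otc. None of the 5 was called with median centring or with no dye normalization.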

How the data were processed

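The median spot and local background intensities were read as deposited. Per the file headers they come from the authors' Feature Extraction (version 11.5.1.1) without background correction or dye normalization. The log10 ratios of red over green are the authors' own, after their background subtraction and dye normalization, and served as an alternative. The other columns used hold the marks that the authors' Feature Extraction gave each spot (well above background, saturated, outlier).

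Spots marked as outliers were left out. Signals were corrected with normexp (offset 50), and ratios were normalized by loess within each array in limma 3.58.1 (R 4.3.3). Levels per channel were then scaled between arrays by Aquantile. A probe was tested where 1 colour, the same on each array, had more than 0.5 of the spots well above background, and the brightest probe stood for its gene. Of 30367 probes 60.4% matched a RefSeq symbol. Each gene's 3 log2 ratios were fitted with an intercept and eBayes, and p was adjusted by Benjamini-Hochberg. Control and G200 are paired because they share an array.

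Members, lists and markers were chosen with earlier results of these data known. A further 2 enzymes of the list are not reported here and enter no mean or count of the enzymes. Other genes named are the up to 4 called genes farthest from 0 in each pathway list and in the liver, proximal tubule, macrophage and small intestine markers, the nearest 5 genes, and some listed genes that were not called or could not be tested. The lists are pathway genes (arginine carriers, arginine use, polyamines, ornithine and proline, ammonia and glutamate, creatine use, hepatic transcription factors) and markers (liver, proximal tubule, thick limb and distal tubule, collecting duct, podocyte, macrophage, small intestine, fat, adrenal gland, pancreas). Alternatives tried were median centring, no dye normalization, an offset of 0, the authors' log ratio, no filter, a filter on both colours, the mean of probes, robust variances, a t-test of the 3 log ratios against 0 (two-sided), no pairing, and leaving out each replicate. Leaving out Cps1 and the methods' t-test between the channels (unequal variance, two-sided) were added after seeing the data. The slide was not used as a block, since all arrays share 1 slide.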

Additional observations from a re-analysis of the deposited data

How the results depend on the processing

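Median centring of each array turned the sign of Ass1 (0.050), Asl (0.21), Gamt (0.52), Ddah2 (0.26), Srm (0.36), Gnmt (0.24), Cebpb (0.10), Nr1h4 (0.0527), Miox (0.65) and C1qb (0.23) to positive. The difference between liver-restricted and renal enzymes was -0.92 instead of -0.31.

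No normalization between the dyes turned Ass1 (0.40), Asl (0.56), Gamt (0.87), Nags (0.15), Slc25a29 (0.19), Ddah2 (0.61), Srm (0.71), Prodh (0.21), Prodh2 (0.29), Gnmt (0.59), Cebpb (0.45), Nr1h4 (0.40), Miox (0.999), C1qb (0.58), Rbp2 (0.11), Hpd (0.10) and Rpp21 (0.061) positive. Genes called were 8314, against 5316, and pathway genes called were 34, all higher, against 21. The difference was -0.92, as with median centring, because a constant shift of an array cancels in it.

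An offset of 0 gave a difference of -0.95, and the authors' log ratio gave -1.80 and called 2 enzymes, against 4. The mean of all probes of a gene gave a difference of -0.22. A filter on both colours gave none, since it left no liver-restricted enzyme. Leaving out Cps1, a choice added after seeing the data, gave -0.74.

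A t-test of the 3 log ratios against 0 called 2 genes, 0 enzymes and 0 pathway genes after adjustment. Before adjustment it called 4475 genes, 2 enzymes and 18 pathway genes, against 6964, 5 and 30 in limma, and after adjustment limma called 5316, 4 and 21. The methods' t-test, of unequal variance between the channels and added after seeing the data, called 353, 0 and 1 after adjustment and 4211, 3 and 17 before. Without the pairing by array 12 pathway genes were called.

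Leaving out 1 replicate gave 1612 (without replicate 3) to 4972 (without replicate 2) genes called, 1 (without replicate 3) to 4 enzymes and 7 (without replicate 3) to 15 pathway genes. Over all alternatives the enzymes had 73 results with the same outcome, 14 weaker, 3 stronger and 7 reversed of 97. Where no reason is given the cause was not tested.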
